A study of Homo sapiens with 6 samples.

Results

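Mitochondrial ribosomal proteins were taken as the genes whose symbol starts with MRPL (large subunit) or MRPS (small subunit) followed by a digit, measured by a probe set that names no other gene. The rule found 73 genes, 48 MRPL and 25 MRPS, among 18404 genes on the array. They were chosen by name and not by any measured value. The symbol gives the subunit except for MRPS18A and MRPS30, which were classed with the large subunit but stay in the MRPS counts. MRPS31P5 was left out as a pseudogene, and MRPL51, MRPS6, MRPS24 and MRPS28 were left out because their probe sets also name another symbol. Where a gene had more than 1 probe set, the one with the highest mean was used, which concerned only MRPL36.

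The study measured total RNA of HCT116 cells, an established line from a human colorectal carcinoma, sorted by flow cytometry into cells with CD133 on their surface (CD133+) and cells without it (CD133-). CD133 is a membrane glycoprotein encoded by PROM1 and is used to enrich tumour-initiating cells. Each fraction was measured on 3 arrays, numbered as repetitions 1, 2 and 3 in both fractions. Both fractions are the same untreated line, so the groups differ only in the sort as far as the labels say, and the line is a single tumour's cells without stroma. The labels leave unsaid whether the repetitions came from different cultures. Every p-value therefore reflects no more than the spread among these arrays, which may be technical.

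Values are log2 signals, normalized by the authors, and every difference is on the log2 scale. Array medians over 28230 transcript probe sets lay between 5.44 and 5.60. PROM1 measured 7.59, 7.36 and 7.09 in CD133+ repetitions 1, 2 and 3, and 5.30, 4.46 and 3.97 in CD133-. The fractions did not overlap for the gene whose product was sorted (difference 2.77; limma adjusted p = 0.142 with fraction as the only term, and 0.0120 once repetition was added as a block). Of 11 colorectal epithelial markers, 9 lay above the median probe set level, and their mean level was 8.43 to 8.61 in CD133+ and 8.29 to 8.56 in CD133- arrays. In repetition 2, 0 of the 11 were called higher and 3 lower (background 8.83% and 5.81% of probe sets). Those lower were CDH1 (-0.81), CLDN4 (-0.81) and KRT19 (-0.37), opposite in sign to most of the members described next. Of the 11, 3 lay above 0 there, namely KRT18 (0.15), KRT8 (0.14) and KRT20 (0.14). Between fractions 7 of the 11 were above 0 (median 0.05) and 4 below. Keratins KRT18 (-0.48) and KRT8 (-0.24) were lower in CD133+ and CLDN7 (0.48) higher, each without overlap and with none called. Over all genes 3.43% were higher without overlap and 4.52% lower. CDH1 (0.40) and CLDN4 (0.19) overlapped but were higher in all 3 repetitions, as was CLDN7, while 4 of the 11 were lower in all 3. The part of these markers in the results on the members was not tested. Named pseudogenes were counted for the members only, so probes of other genes, such as KRT18, may also read other loci. Markers of other cell types above that level numbered 1 of 8 for leukocytes, 2 of 8 for fibroblasts, 1 of 6 for endothelium and 0 of 4 for erythroid cells, and the mean level of each of these lists was at most 4.70 on any array.

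The mitochondrial ribosome translates the few messages encoded by the mitochondrial genome, all of which are for subunits of the respiratory chain and ATP synthase. Its RNA comes from the mitochondrial genome, whereas its proteins are encoded in the nucleus, made in the cytosol and imported. Some of them descend from bacterial ribosomal proteins, and others exist only in mitochondria. Factors of the NRF1, ETS (such as GABPA), YY1 and MYC families are known to act on many of their promoters.

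As a group, the mitochondrial ribosomal protein genes were measured slightly higher in CD133+ cells, and no single gene passed the test. The difference was above 0 for 67 of 73 genes, with a median of 0.13 and quartiles of 0.07 and 0.20. Over all 18404 genes 47.9% were above 0, with a median of -0.01. Among the 11250 genes with a mean signal above the median of probe set means (5.53), as all 73 were, 52.6% were above 0. The mean level of these 11250 genes ran from 7.39 to 7.47 over the arrays, and that of the members from 7.92 to 8.47. The sets were thus not matched in signal. The 6 members below 0 were MRPL10, MRPL9, MRPL27, MRPS30, MRPL55 and MRPS10.

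Within repetitions 1, 2 and 3 the median difference was 0.09, 0.08 and 0.23, and 54, 60 and 63 genes were higher in CD133+. Hence the direction of the median was the same in each repetition, and repetition 3 had the largest. The difference was above 0 in all 3 repetitions for 41 genes and below 0 in all 3 for MRPS30 alone, against 17.7% and 18.5% of all genes. Among genes above the median signal, 22.7% were above 0 in all 3. The 3 CD133+ arrays lay above all 3 CD133- arrays for MRPL45 only, where 3.43% of all genes did so. For no member did they lie below, against 4.52% of all genes. With fraction as the only term, limma called 0 of 73 genes, at a background of 0.00354% of probe sets called, and 0 had an unadjusted p under 0.05 (background 3.45%, of which 1.64% higher and 1.81% lower). With the repetition as a block, 0 of 73 were called (background 0.298%), and 14 had an unadjusted p under 0.05, all of them higher in CD133+. Those 14 are 19.2% of the genes, where 5.82% of probe sets, and 7.71% of genes above the median signal, were at that level and higher. The size of the median moved with the arrays used. It was 0.01 without CD133+ repetition 2, 0.04 without CD133- repetition 3, 0.22 without CD133+ repetition 1 and 0.27 without CD133- repetition 2, because dropping 1 array leaves the repetitions unbalanced. With both arrays of a repetition left out it was 0.17, 0.15 and 0.09.

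**Figure D1:**
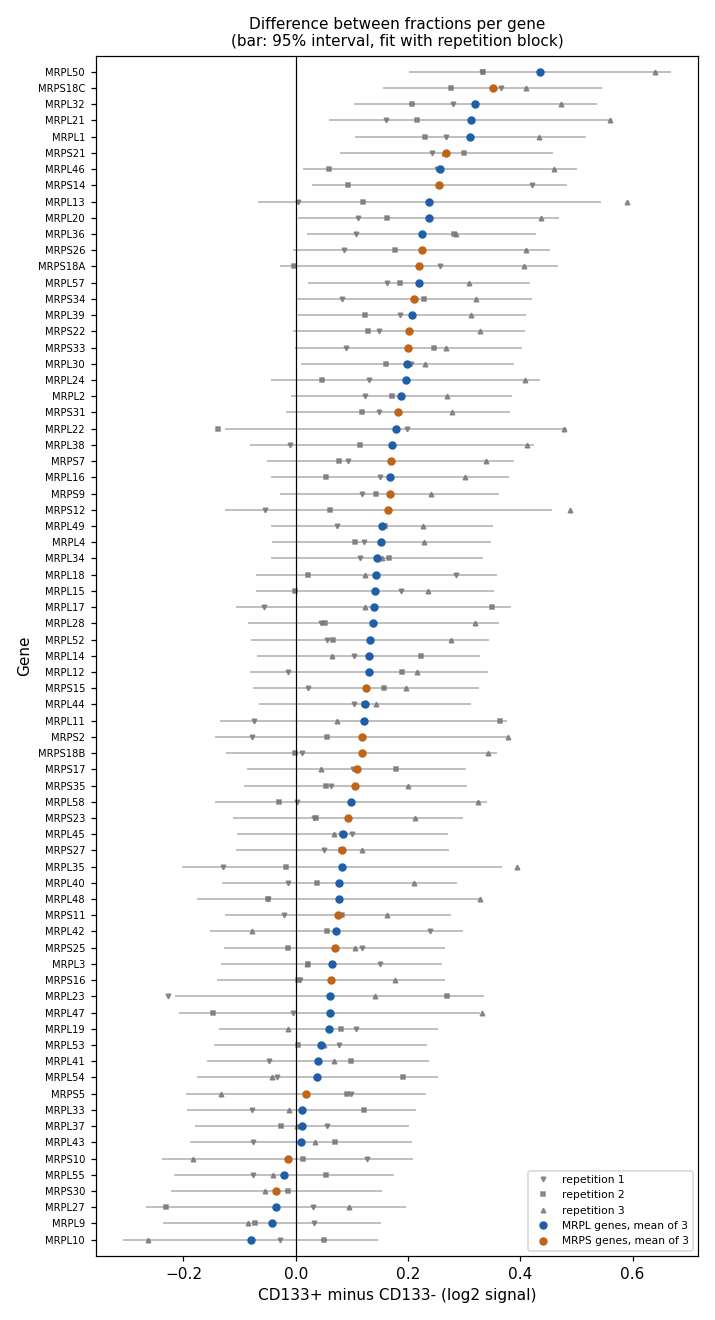
Difference between CD133+ and CD133- (log2) for each of 73 mitochondrial ribosomal protein genes, with a point for each repetition and a mark for the mean of 3. Means lie above 0 for 67 genes, and 41 genes have all 3 repetitions above 0.

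MRPL50, a large-subunit protein found only in mitochondria, had the smallest p of all members. It measured 8.32, 8.81 and 8.31 in CD133+ repetitions 1, 2 and 3 and 7.99, 8.47 and 7.67 in CD133-. Each CD133+ array was above its same-numbered partner, although the ranges of the fractions overlapped. The difference was 0.44, or 1.35-fold (SE 0.10, 95% interval 0.20 to 0.67 with the block), with adjusted p = 0.177 with the block and 1 without it. MRPL50 passed in limma's block fits restricted to probe sets with a mean of at least 6 (adjusted p = 0.0373) or with a trended, robust prior (0.0460), and in no other of the fits run.

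MRPS18C, MRPS18A and MRPS18B are 3 relatives of a single bacterial small-subunit protein, S18. MRPS18C, which takes the place of the bacterial protein, measured 5.71, 6.29 and 5.53 in CD133+ and 5.35, 6.01 and 5.12 in CD133- repetitions 1, 2 and 3. The fractions overlapped, but each repetition gave a gap of similar size (0.37, 0.28 and 0.41; mean 0.35, SE 0.08, block adjusted p = 0.190). MRPS18A measured 8.20, 8.41 and 8.23 against 7.94, 8.41 and 7.82, with no gap in repetition 2 (mean 0.22, adjusted p = 0.492). MRPS18B had a mean difference of 0.12 (adjusted p = 0.727), most of it from repetition 3. Signals of different probe sets are not comparable, so the 3 were not set against each other in level.

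Among other proteins kept from bacteria, MRPL1, part of the mobile stalk beside the exit site for tRNA, measured 8.95, 9.55 and 9.03 in CD133+ and 8.68, 9.32 and 8.60 in CD133- (difference 0.31, adjusted p = 0.259). MRPL32, which is cut by the m-AAA protease before it joins the large subunit, measured 8.43, 8.96 and 8.38 against 8.15, 8.76 and 7.90 (0.32, adjusted p = 0.268). MRPS21, a small-subunit protein, measured 8.99, 9.30 and 9.01 against 8.75, 8.997 and 8.75. All 3 were higher in CD133+ in every repetition, and for MRPS21 the gaps were nearly equal (0.24, 0.30 and 0.26; adjusted p = 0.288). The fraction accounted for 52.2% of the MRPS21 sum of squares, against a median of 9.02% over the 73 genes. MRPS14, another small-subunit protein, measured 7.37, 7.39 and 7.24 against 6.94, 7.30 and 6.99 (0.26, adjusted p = 0.391). MRPL21, and MRPL57, which is specific to mitochondria, had differences of 0.31 and 0.22 (adjusted p = 0.353 and 0.397).

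MRPL45, which anchors the large subunit to the inner membrane, was the gene without overlap. It measured 10.62, 10.69 and 10.65 in CD133+ and 10.52, 10.61 and 10.58 in CD133-. All arrays lay close together, and the difference was only 0.08 (block adjusted p = 0.754; exact two-sided permutation p = 0.1, the smallest that 3 against 3 can give). MRPS30, a mitochondria-specific protein that in mammals sits in the large subunit despite its name, measured 8.92, 9.26 and 8.91 in CD133+ and 8.96, 9.27 and 8.96 in CD133-. Its difference of -0.03 (adjusted p = 0.914) was small beside its gap between repetitions. MRPL10, a stalk-base protein, measured 8.58, 8.57 and 8.67 against 8.61, 8.52 and 8.93, and most of its difference of -0.08 (adjusted p = 0.808) came from CD133- repetition 3. For its stalk partner MRPL12, which also binds the mitochondrial RNA polymerase, the values were 8.64, 9.22 and 9.02 in CD133+ and 8.65, 9.03 and 8.80 in CD133- (0.13, adjusted p = 0.648). MRPS12, of the decoding centre, had a difference of 0.17 (adjusted p = 0.674). MRPL58, a peptidyl-tRNA hydrolase built into the ribosome, had 0.10 (0.777), and MRPL41 had 0.04 (0.903).

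**Figure D2:**
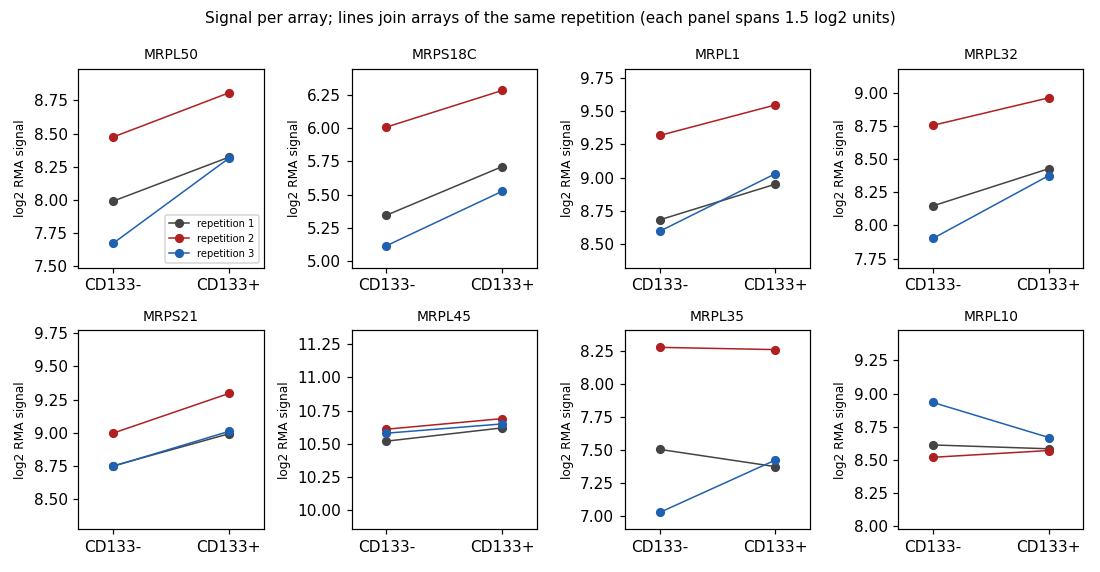
Log2 signal of named mitochondrial ribosomal protein genes on each of the 6 arrays, with a line joining the CD133+ and CD133- array of the same repetition. MRPL50 and MRPS18C are higher in CD133+ in each repetition, and repetition 2 lies on top for most genes shown.

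The classes by subunit and origin had medians between 0.09 and 0.15. The median difference was 0.13 for 48 MRPL genes (44 above 0) and 0.13 for 25 MRPS genes (23 above 0). It was 0.14 for 29 large-subunit proteins kept from bacteria, 0.09 for 20 large-subunit proteins specific to mitochondria, 0.13 for 13 small-subunit proteins kept from bacteria and 0.15 for 10 small-subunit proteins specific to mitochondria. MRPL55 was placed in no class. The differences between these classes were not tested. Named pseudogenes exist in RefSeq for 38 of the 73 genes, among them MRPS21 with 9 and MRPL57 with 8, so probes may read more than 1 locus there. The 35 genes without one had a median of 0.14 with 31 above 0, and the 38 with one had 0.12 with 36 above 0.

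The larger pattern was between repetitions. The repetition accounted for a median of 80.1% of a member's sum of squares and the fraction for 9.02%. Over the 11250 genes above the median signal, where all 73 members lie, these shares were close to the members', at 77.3% and 7.20% (67.8% and 8.21% over all genes). On average over the members, repetition 2 was the highest in both fractions. In a limma fit with the fraction as a term, 32 of 73 genes differed between repetitions (43.8%; background 13.0% of probe sets called, and 22.7% of the genes above the median signal). Repetition 2 was higher than the mean of the other repetitions for 39 genes (53.4%; background 8.83% of probe sets, and 18.3% of the genes above the median signal) and lower for 0 (5.81%). Repetition 3 was lower for 9 genes, or 12.3%, which is the share among genes above the median signal (12.5%; background over all probe sets 6.16%). They were MRPL3, MRPL18, MRPL32, MRPL35, MRPL39, MRPS9, MRPS10, MRPS18C and MRPS22. It was higher for 0 (4.16%). Repetition 1 was higher or lower for 0 (0.244% and 0.156%). Repetition numbers name arrays and carry no order.

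The median member signal was 8.20, 8.57 and 8.23 on CD133+ arrays 1, 2 and 3, and 7.99, 8.47 and 7.90 on the CD133- arrays. Repetition 2 thus stood above the others in both fractions. The median of repetition 2 minus the others was 0.37, with 71 of 73 genes above 0 (45.5% of all genes, median -0.03; 54.0% of genes above the median signal, median 0.04). The exceptions were MRPL10 (-0.15) and MRPL55 (-0.14). Both repetition 2 arrays lay above all 4 others for 57 of 73 genes, against 20.4% of all genes and 30.3% of those above the median signal. The order of means was 2, 1, 3 for 43 genes and 2, 3, 1 for 25, or 58.9% and 34.2%, where 24.0% and 11.3% of all genes, and 33.8% and 11.3% of those above the median signal, had those orders. The highest array was CD133+ repetition 2 for 56 genes, and the lowest was CD133- repetition 3 for 47, against 18.4% and 19.6% of all genes and 23.2% and 27.0% of those above the median signal. Scaling moved the sizes. Shares of all genes called are not given for the refits in the rest of this paragraph, so member counts there have no background. Centring arrays on their medians moved the median of all genes from -0.03 to 0.09 in repetition 2 and from 0.03 to -0.07 in repetition 3. It gave a member median of 0.49 in repetition 2, with 71 genes above 0 and 55 called, and 27 called lower in repetition 3. Repeated quantile normalization gave 0.25, with 64 above 0 and 22 called, and 3 called lower in repetition 3. The count of 39 was 4 without CD133+ repetition 2 and 0 without CD133- repetition 2, and 16 to 29 without each other array, while the median stayed between 0.34 and 0.42.

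**Figure D3:**
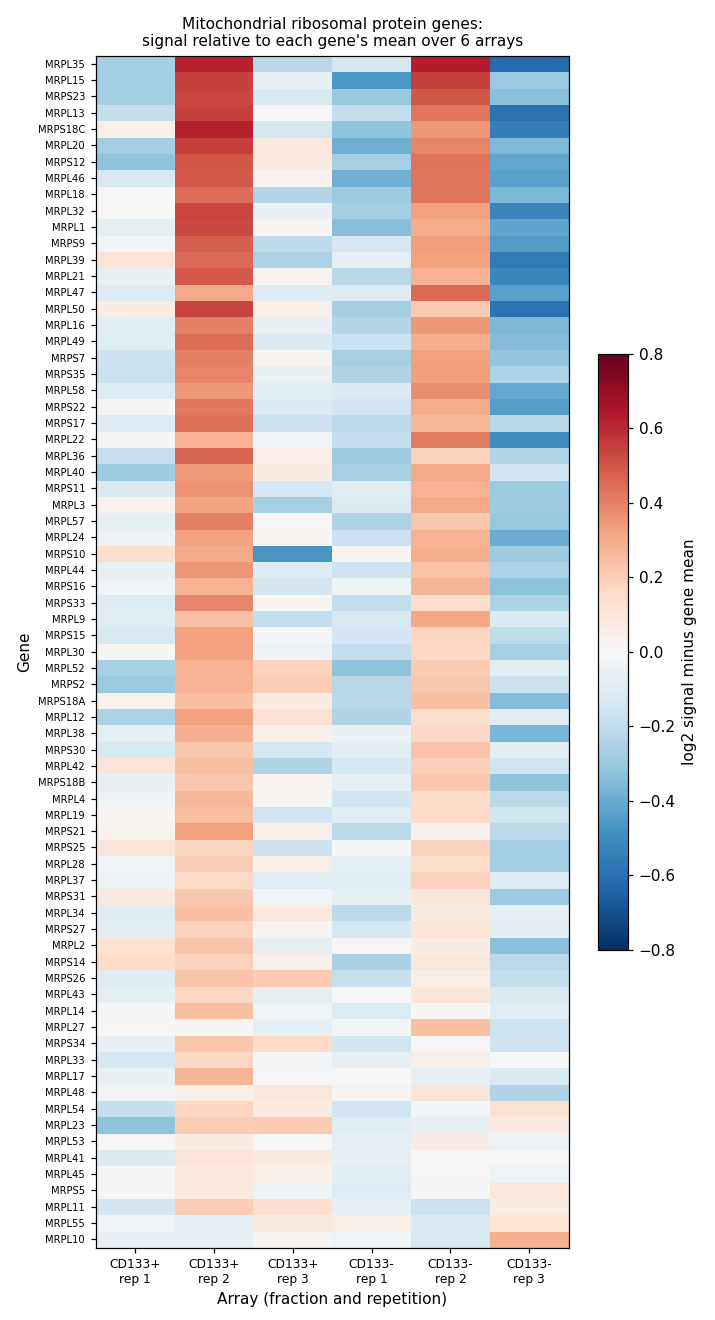
Signal of each of 73 mitochondrial ribosomal protein genes on each array minus the gene's mean over 6 arrays (log2, red above and blue below). The repetition 2 columns of both fractions are red for nearly all genes, and the CD133- repetition 3 column is the lowest for 47 of them.

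MRPL35, a large-subunit protein kept from bacteria, had the widest gap between repetitions. It measured 7.38, 8.26 and 7.43 in CD133+ and 7.51, 8.27 and 7.03 in CD133-, so repetition 2 was 0.93 above the others (SE 0.13, adjusted p = 0.0118) and repetition 3 was 0.63 below them (adjusted p = 0.0361). Its fractions differed by only 0.08. MRPL15, another large-subunit protein kept from bacteria, measured 7.11, 7.93 and 7.31 against 6.92, 7.93 and 7.08, and was 0.82 higher in repetition 2 (SE 0.09, adjusted p = 0.00972). MRPS23, a small-subunit protein specific to mitochondria, measured 7.99, 8.80 and 8.14 against 7.96, 8.76 and 7.93 (0.78 higher, adjusted p = 0.01). For MRPS18C the gap was 0.72 (adjusted p = 0.0102). Also among the 8 with the smallest p between repetitions were MRPL20 (0.71), MRPL18 (0.66), MRPS9 (0.61) and MRPL39 (0.59), with adjusted p from 0.0125 to 0.0139. Other members had gaps as large but larger p, such as MRPL13 (0.73), MRPS12 (0.70) and MRPL46 (0.69). MRPL39 was also 0.61 lower in repetition 3 (adjusted p = 0.0218).

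The 4 members with the largest p between repetitions were MRPL45, MRPS5, MRPL53 and MRPL48, with adjusted p of 0.814, 0.779, 0.703 and 0.644. MRPS5, a small-subunit protein kept from bacteria, measured 8.20, 8.28 and 8.17 in CD133+ and 8.10, 8.19 and 8.30 in CD133-. MRPL53 measured 8.55, 8.61 and 8.55 against 8.47, 8.60 and 8.50. The 2 fractions and the repetitions of both genes lay close together. MRPL36 had 2 probe sets that went opposite ways. The brighter one measured 8.49, 9.14 and 8.72 against 8.38, 8.85 and 8.43 and was 0.49 higher in repetition 2 (adjusted p = 0.0206). The other measured 8.20, 7.99 and 8.43 against 8.13, 7.75 and 8.38 and was 0.42 lower there (adjusted p = 0.0317). Both were higher in CD133+ in each repetition, by 0.22 and 0.12 on average (block adjusted p = 0.399 and 0.659).

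By class, 25 of 48 MRPL and 14 of 25 MRPS genes were called higher in repetition 2, with medians of 0.37 in both. The background was 8.83% of probe sets and 18.3% of genes above the median signal, and differences between classes were not tested. Of 29 large-subunit proteins kept from bacteria 16 were called, and of 20 specific to mitochondria 10. In the small subunit 9 of 13 kept from bacteria and 4 of 10 specific to mitochondria were called. Genes without a named pseudogene were called in 15 of 35 cases (median 0.33), and those with one in 24 of 38 (0.43).

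Promoter sequence was available from RefSeq (GRCh38.p14) for 66 of the 73 genes, as 250 bases before to 50 after the first listed start. It was searched on both strands for the cores bound by factors known to act on genes for mitochondrial proteins, with 0 overlaps between matches of different cores. The ETS core CCGGAAG was found in 28 of 66 promoters (42.4%), against 14.6% of 14230 genes measured on the array and 10.7% of all 27305 promoters. The YY1 core AAGATGGCG was found in 12 (18.2%), against 2.87% and 1.85%. The NRF1 core (GCGCA and GCGC with any base between) was found in 8 (12.1%), against 8.91% and 6.28%, and the E-box CACGTG, which MYC family proteins bind, in 6 (9.09%), against 8.88% and 7.43%. In 55 promoters of cytosolic ribosomal protein genes the shares were 34.5%, 7.27%, 10.9% and 5.45% in the same order. Genes with and without the ETS core had median differences between fractions of 0.14 and 0.13, and 0.37 and 0.37 in repetition 2. For YY1 these were 0.18 and 0.12 between fractions, and 0.41 and 0.37 in repetition 2. The same medians for NRF1 were 0.18 and 0.12, and 0.39 and 0.36. For the E-box they were 0.17 and 0.13, and 0.51 and 0.36. A match is a run of letters in the window and says nothing of binding.

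The 250 bases before the start are shown for 5 members, chosen after their values were seen: genes higher in repetition 2 (MRPS18C, MRPL32, MRPL20), the gene with opposed probe sets (MRPL36) and the gene with a flat profile and separate fractions (MRPL45). Each runs 5′ to 3′ on the gene's strand, with matches to the cores in capitals. The MRPL36 window lies within the gene's annotated span (chr5:1798385-1801434), whereas the other windows end at the gene's outer edge. Capitals mark an ETS core and an E-box in MRPS18C, a YY1 core in MRPL32, a pair of ETS cores in MRPL20, an NRF1 core, an E-box and a YY1 core in MRPL36, and an NRF1 core and an E-box in MRPL45.
MRPS18C (chr4:83455808-83456057, plus strand): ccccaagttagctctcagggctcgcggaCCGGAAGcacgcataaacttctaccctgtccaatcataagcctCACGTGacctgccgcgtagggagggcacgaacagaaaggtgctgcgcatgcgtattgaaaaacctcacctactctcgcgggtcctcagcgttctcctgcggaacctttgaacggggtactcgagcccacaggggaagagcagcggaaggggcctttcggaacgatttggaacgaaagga
MRPL32 (chr7:42932126-42932375, plus strand): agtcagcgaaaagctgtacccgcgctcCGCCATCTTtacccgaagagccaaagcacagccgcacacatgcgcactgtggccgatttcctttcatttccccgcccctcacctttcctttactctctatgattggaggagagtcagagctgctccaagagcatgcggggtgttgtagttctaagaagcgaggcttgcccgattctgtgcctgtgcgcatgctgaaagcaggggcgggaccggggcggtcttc
MRPL20 (chr1:1407294-1407543, minus strand): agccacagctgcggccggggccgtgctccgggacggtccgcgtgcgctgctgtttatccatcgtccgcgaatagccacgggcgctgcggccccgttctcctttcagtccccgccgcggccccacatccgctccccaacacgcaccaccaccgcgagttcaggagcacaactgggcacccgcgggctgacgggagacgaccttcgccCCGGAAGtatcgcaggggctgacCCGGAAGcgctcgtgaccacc
MRPL36 (chr5:1799838-1800087, minus strand): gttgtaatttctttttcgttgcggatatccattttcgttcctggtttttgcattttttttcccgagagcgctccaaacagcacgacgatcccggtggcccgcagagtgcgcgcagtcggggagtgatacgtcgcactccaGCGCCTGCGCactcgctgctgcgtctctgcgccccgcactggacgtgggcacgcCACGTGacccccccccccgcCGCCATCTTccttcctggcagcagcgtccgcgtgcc
MRPL45 (chr17:38296918-38297167, plus strand): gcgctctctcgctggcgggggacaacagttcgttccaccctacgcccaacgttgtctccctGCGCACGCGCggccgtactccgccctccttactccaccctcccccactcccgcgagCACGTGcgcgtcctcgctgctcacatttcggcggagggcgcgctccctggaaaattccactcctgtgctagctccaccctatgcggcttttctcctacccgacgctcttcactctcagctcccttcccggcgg
Of the 66 member promoters searched, 43 held any of these cores, so the windows shown do not stand for all members. The part of the cores in the differences between fractions or repetitions was not tested.

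Genes that work with the mitochondrial ribosome were read from lists of fixed membership. Mitochondrially encoded transcripts were not analysed here. In these lists 0 genes were called between fractions by limma with or without the block, and the counts below are of those above 0 in CD133+ minus CD133-. Of 4 ribosomal proteins with other symbols 3 were above 0 (median 0.13). CHCHD1, a small-subunit protein, measured 7.34, 7.79 and 7.46 in CD133+ and 6.995, 7.49 and 6.69 in CD133- (0.47, SE 0.11, block adjusted p = 0.202). PTCD3, which binds the small subunit, had 0.13 (0.608). Of 27 assembly and ribosomal RNA modification factors 23 were above 0 (median 0.11). The RNA helicase DDX28 measured 6.10, 6.60 and 6.01 against 5.62, 6.47 and 5.38 (0.41, adjusted p = 0.261), and METTL15, an rRNA methyltransferase, had 0.29 (0.264). All CD133+ values of CHCHD1 and DDX28 were above their same-numbered partners.

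Of 15 translation factors and messenger RNA partners 11 were above 0 (median 0.14). MRRF, the ribosome recycling factor, measured 8.28, 8.37 and 8.26 in CD133+ and 8.03, 8.17 and 8.04 in CD133-, without overlap (0.22, adjusted p = 0.365), and SLIRP, which stabilises mitochondrial messages, had 0.24 (0.388). Of 21 genes listed as charging enzymes of mitochondrial tRNAs 19 were above 0 (median 0.08), with LARS2 for leucine at 0.30 (0.304) and MARS2 for methionine at 0.21 (0.498). That list includes GARS1 and KARS1, which also serve the cytosol, and QRSL1, GATB and GATC, which act on tRNAs already charged. Of 17 genes of mitochondrial transcription, replication and RNA processing 14 were above 0 (median 0.13), with TRMT10C, a subunit of mitochondrial RNase P, at 0.29 (0.286) and TWNK, the mitochondrial DNA helicase, at 0.26 (0.333). Of 9 nuclear regulators 5 were above 0 (median 0.01). Among these MYC measured 10.17, 10.31 and 10.14 against 9.95, 10.12 and 9.82, without overlap (0.24, adjusted p = 0.350), and the nuclear receptor ESRRA had 0.36 (0.394). With the block, an unadjusted p under 0.05 in the higher direction was reached by 1 of the 4 ribosomal proteins with other symbols, 4 of 27 assembly factors, 4 of 15 translation factors, 1 of 21 charging enzymes, 3 of 17 transcription, replication and RNA processing genes and 2 of 9 regulators. In the lower direction it was reached by 1 of the 17, namely POLG (-0.25, adjusted p = 0.4025), which was lower in all 3 repetitions. The background was 5.82% of probe sets higher and 5.53% lower, so the 1 of 21 charging enzymes and the 1 of 17 that was lower are at about that share. In these lists MRRF, VARS2 and MYC were higher without overlap and POLG was lower without overlap. Over all genes 3.43% were higher in that way and 4.52% lower.

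Most of these lists also had more genes called higher in repetition 2 than the background of 8.83% of probe sets, or 18.3% of genes above the median signal. Called higher there were 12 of 17 transcription, replication and RNA processing genes (median 0.54), 11 of 21 charging enzymes (0.41), 10 of 27 assembly factors (0.32), 7 of 15 translation factors (0.28), 1 of 4 ribosomal proteins with other symbols (0.21) and 2 of 9 nuclear regulators (0.23). The last of these is near the share among genes above the median signal, and single counts in lists of so few genes say little. TFAM, which packages mitochondrial DNA and starts its transcription, was 0.75 higher (adjusted p = 0.0104) and LARS2 0.80 higher (adjusted p = 0.0102). Among S phase genes, such as the MCM helicase subunits, 18 of 20 were called higher in repetition 2, with a median of 0.67, and 18 were called lower in repetition 3, with a median of -0.53. Their mean level ran from 8.79 to 9.49 on CD133+ arrays and from 8.50 to 9.48 on CD133- arrays. Between fractions 19 of 20 were above 0, with a median of 0.14, and the medians within repetitions 1, 2 and 3 were 0.10, 0.01 and 0.24. The S phase list thus moved with the mitochondrial ribosomal genes between repetitions and also lay above 0 between fractions, and its part in either result was not tested.

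Cytosolic ribosomal protein genes and complex I subunits are the sets most like the members in kind. Of 66 cytosolic ribosomal protein genes 47 were above 0 between fractions (median 0.03), and 2 were called higher and 1 lower in repetition 2 (median -0.07). Of 34 nuclear-encoded subunits of complex I, the respiratory enzyme that also holds subunits made by the mitochondrial ribosome, 30 were above 0 (median 0.15), 24 in all 3 repetitions, and 7 were called higher in repetition 2 (20.6%; median 0.20). The background in repetition 2 was 8.83% of probe sets called higher and 5.81% lower. Among genes above the median signal, where all 34 complex I genes lie, 18.3% were called higher, so the complex I share is near that. The share above 0 in all 3 repetitions was 70.6% for complex I, 56.2% for mitochondrial and 25.8% for cytosolic ribosomal protein genes. Differences between these sets were not tested.

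**Figure D4:**
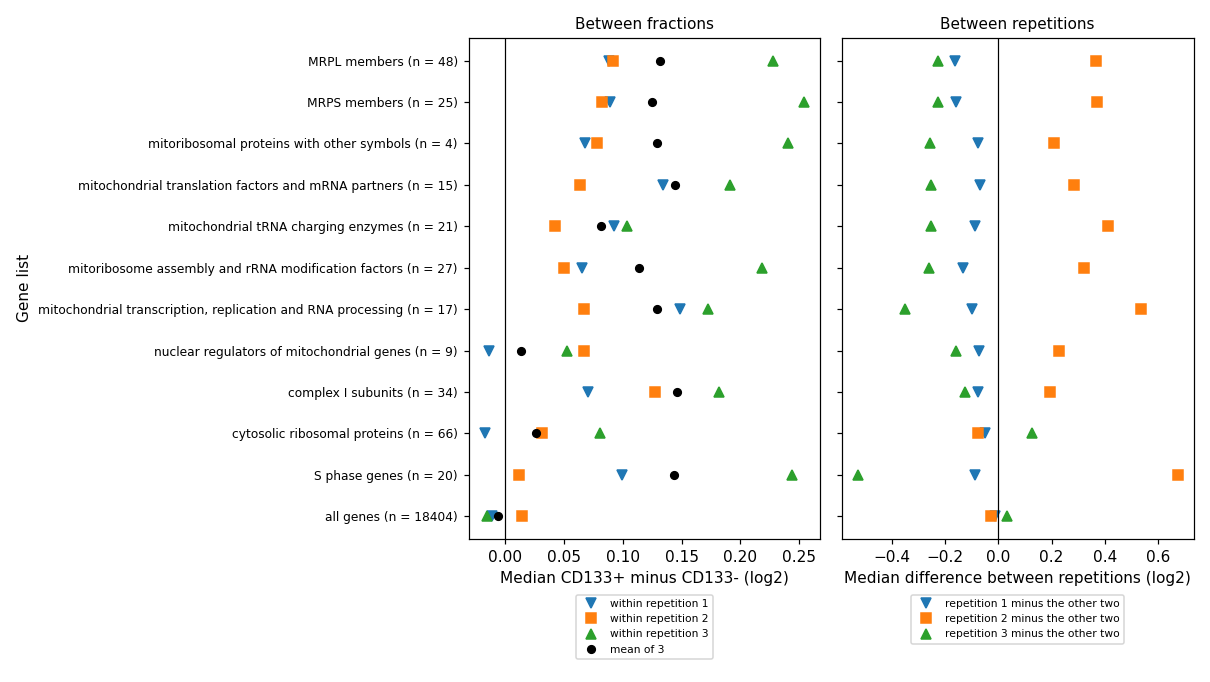
Median difference (log2) over the genes of each list, between fractions within each repetition and on average on the left, and between each repetition and the other two on the right. Both mitochondrial ribosomal lists lie above 0 between fractions in each repetition and high in repetition 2, whereas cytosolic ribosomal proteins lie at -0.07 there.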

How the data were processed

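The deposited values are log2 signals that the authors computed by RMA (background correction, normalization between arrays and summary of probes), per the labels' design text, with a version not given in the sources used here. Their scale was read from the values (1.09 to 13.7). That text names a U133 array, but the row identifiers and annotation are those of a Human Gene ST array, which was used. Of 32321 rows, 4091 that precede the first annotated identifier were left out as controls. Of the 28230 probe sets tested, 19158 named 1 gene, 1388 several and 7684 none, and 0 columns were unused.

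CD133+ minus CD133- was fitted with limma 3.58.1 in R 4.3.3, with fraction as the only term. Repetitions were compared in a fit with both terms, by an F test and by each repetition minus the mean of the others. Benjamini-Hochberg adjustment ran over all probe sets, with 0.05 as the threshold. Fits were tested on simulated data. The differences added there were larger than any member's difference between fractions, so that test does not bear on differences as small as the members'. The number of arrays limits the precision. Deviations of same-numbered arrays from their fraction's mean correlated at 0.447, 0.616 and 0.589 across probe sets, so the repetitions paired the arrays by the data, and the fit with the repetition as a block is printed beside the other.

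Named genes were PROM1, the 8 members per direction with the smallest block p (fewer lie below 0), those without overlap, the 8 with the smallest and 4 with the largest p between repetitions, 9 with a fixed role, and in each list the 2 with the smallest block p. TFAM was added after its values were seen, as were POLG, VARS2, MRPL36, MRPL13, MRPL46, the epithelial markers named and the members listed as lower in repetition 3. The members and lists were chosen with earlier results of these data known. Alternatives were other filters, scalings, probe set summaries, priors and left-out arrays.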

Additional observations from a re-analysis of the deposited data

How the results depend on the processing

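The count of 0 mitochondrial ribosomal protein genes called between fractions held in all fits run but the block fits with a mean of at least 6 or with a trended, robust prior, where MRPL50 made it 1. Over all probe sets 1 was called with fraction as the only term, 84 with the repetition block, and 0 with a mean of at least 6, repeated quantile normalization, centred arrays or controls included. Leaving out 1 array gave 0 to 2. With the block and a second change the count was 403 (above the median signal), 464 (mean of at least 6), 67 (quantile), 84 (centred), 94 (mean of probe sets), 389 (trended prior) and 0 (controls included), and with the block it was 43, 18 and 0 without repetitions 1, 2 and 3. The median difference of the members was 0.011 to 0.268 without 1 array and 0.089 to 0.171 without a repetition.

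Between repetitions, 3680 probe sets and 32 members were called. These became 2061 and 12 with the repetition as the only term, 6791 and 49 above the median signal, 6469 and 50 at a mean of at least 6, 2655 and 12 after quantile normalization, 69 and 0 with controls included, and 6335 and 48 with a trended prior. They were 63 to 2351 and 0 to 17 without 1 array. The cause was not tested, apart from the fewer arrays or probe sets in some fits.

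Signs of small differences turned when an array or a repetition was left out, with ranges of -0.165 to 0.042 (MRPL10), -0.001 to 0.290 (MRPL12), -0.097 to 0.450 (MRPL15), -0.045 to 0.393 (MRPL18), -0.126 to 0.076 (MRPL27), -0.204 to 0.418 (MRPL35), -0.023 to 0.424 (MRPL39), -0.001 to 0.107 (MRPL41), -0.049 to 0.147 (MRPL48), -0.087 to 0.029 (MRPL55), -0.081 to 0.310 (MRPL58), -0.169 to 0.101 (MRPL9), -0.170 to 0.215 (MRPS10), -0.041 to 0.423 (MRPS12), -0.015 to 0.255 (MRPS18B), -0.151 to 0.366 (MRPS23), -0.149 to 0.070 (MRPS30), -0.029 to 0.094 (MRPS5) and -0.029 to 0.376 (MRPS9). Turned values within these ranges were, with the block, 0.007 (MRPL55) and -0.021 (MRPS5) without repetition 1, 0.063 (MRPL27) and -0.018 (MRPS5) without repetition 2, and -0.073 (MRPL35) and -0.014 (MRPL58) without repetition 3. Over single left-out arrays, the lowest value of MRPL48 was -0.025 and the highest of MRPS5 was 0.069. MRPS5 was -0.004 after quantile normalization, with and without the block. The replicate block changed no call of a member beyond those given. Only 6 arrays limit the precision.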
